A study of Homo sapiens with 54 samples.

Results

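EPCAM, ADGRE5, CAMK4, SCRN1 and CD48 are 5 of the 31835 genes counted in OCI-Ly1 lymphoma cells expressing different forms of STAT6. They were chosen by their measured counts, which were much lower in cells expressing STAT6 N421K than in the other cells. This difference is therefore described below without a test. OCI-Ly1, an established line of human B cell non-Hodgkin lymphoma, carries t(14;18). The cells were stably transduced with Flag-tagged STAT6, either wild-type (WT) or with the D419G, D419N or N421K substitution in its DNA binding domain. All groups received IL-4 at 10 ng/ml for 20 min, were washed, and were harvested 2, 4 or 8 h later, so that the comparisons are among IL-4 treated cells. At each time point there were 9 libraries of STAT6 WT and 3 each of D419G, D419N and N421K, in all 54. The transgene was driven by a CMV promoter and the cells kept their own STAT6, which itself carries a variant in this line. The libraries are labelled as biological replicates, but the number of independent transductions is not given in the sources used here. The p-values therefore measure the spread between these libraries, and an effect of the transduced population and one of the STAT6 form cannot be told apart.

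STAT6 is the transcription factor through which cells answer IL-4, and it recognizes palindromic DNA elements near its target genes. In B cells these include genes of class switching and the low-affinity IgE receptor. The 5 genes are not one pathway. EPCAM encodes a homophilic adhesion molecule best known from epithelia. ADGRE5 encodes CD97, an adhesion G protein-coupled receptor of leukocytes that binds CD55. CD48 encodes a glycolipid-anchored receptor of the SLAM family, present on most lymphocytes, that binds CD2 and CD244. CAMK4 encodes a calcium/calmodulin-dependent kinase that phosphorylates CREB family factors. SCRN1 encodes secernin 1, a cytosolic protein first described as a regulator of exocytosis in mast cells.

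The genes lie on 5 different chromosomes of hg38, the build named in the submitters' processing notes. EPCAM (ENSG00000119888) spans chr2:47345158-47387601 on the plus strand, ADGRE5 (ENSG00000123146) chr19:14380501-14408725 on the plus strand, and CAMK4 (ENSG00000152495) chr5:111223653-111494886 on the plus strand. SCRN1 (ENSG00000136193) spans chr7:29920104-29990289 and CD48 (ENSG00000117091) chr1:160678746-160711831, both on the minus strand. RefSeq promoter windows (GRCh38.p14) were at hand for 3 of the 5 genes, CAMK4, SCRN1 and CD48. Of the 250 bases before a transcription start, the longest stretch free of annotated exons is shown for these genes, 5′ to 3′ on the strand of the gene, because their counts were low in the same libraries although the sequences differ in kind. Capitals mark CpG dinucleotides. The stretches are chr5:111224134-111224381 for the CAMK4 start with the most CpG, chr7:29989802-29989942 for SCRN1 and chr1:160711832-160712072 for CD48.
CAMK4: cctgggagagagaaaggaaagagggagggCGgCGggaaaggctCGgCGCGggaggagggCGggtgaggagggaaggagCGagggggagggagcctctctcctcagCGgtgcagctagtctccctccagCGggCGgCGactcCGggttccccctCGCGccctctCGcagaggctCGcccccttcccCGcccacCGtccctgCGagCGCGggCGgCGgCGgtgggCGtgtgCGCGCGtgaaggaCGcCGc
SCRN1: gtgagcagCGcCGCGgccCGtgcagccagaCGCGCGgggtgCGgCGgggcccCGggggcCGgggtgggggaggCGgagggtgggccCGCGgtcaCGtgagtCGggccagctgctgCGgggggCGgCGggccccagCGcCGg
CD48: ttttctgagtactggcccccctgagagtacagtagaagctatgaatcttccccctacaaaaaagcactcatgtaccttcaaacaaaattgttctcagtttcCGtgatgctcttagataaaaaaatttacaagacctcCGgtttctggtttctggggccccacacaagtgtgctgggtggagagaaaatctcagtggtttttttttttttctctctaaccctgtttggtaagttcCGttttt
The 250 bases before this CAMK4 start held 30 CpG and those before the SCRN1 start 28, more than in 87.6% and 84.1% of the 35116 promoter windows. The window of CD48 held 4 CpG, more than in 29.3% of windows, and a GC content of 43.2% compared to 74.0% for SCRN1. The other 2 CAMK4 windows held 0 and 11 CpG, where the median window has 11. The palindromes TTCNNNNGAA and TTCNNNGAA, in which STAT6 and other STAT factors are known to bind, read the same on both strands and occur in 5.38% and 6.57% of all windows. Neither was found in the 5 windows of these 3 genes, which says only that these letters are absent from these 250 bases.

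Prime-seq, a bulk 3′ RNA-seq protocol with unique molecular identifiers (UMIs), gave between 161518 and 2978715 UMIs per library (median 885258.5), and 8 libraries had less than 0.5 of the median (3 D419G, 2 D419N, 1 N421K, 2 WT). Levels are given as CPM, the UMIs of a gene scaled by TMM to a common library size. The 9 B cell markers examined, among them CD79A and PAX5, were all expressed, with a sum of 3101 to 4119 CPM per library in the 4 lines. Of 9 T cell and 9 myeloid markers, 5 and 4 were among the genes listed with counts. The sums of these reached at most 7.63 and 2.80 CPM, respectively. STAT6 itself was counted at 165 ± 22.9 CPM in WT (SD, n = 27), 154 ± 30.1 in D419G, 157 ± 29.7 in D419N and 138 ± 23.8 in N421K (n = 9 each). It is not known whether transgene molecules were counted among these, so that STAT6 does not check the labels.

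One library labelled N421K, replicate 2 of 8 h, stood apart from the others of its line. With 191586 UMIs it was the shallowest of the N421K libraries. Its position was examined with genes other than the 5, namely 31 genes that were lower and 34 that were higher in N421K at 2 and 4 h. The lower genes summed to 687 CPM in this library but to 320 and 368 CPM in the other N421K libraries of 8 h. WT libraries of 8 h had 709 to 782 CPM, D419G 515 to 645 CPM and D419N 636 to 713 CPM. The higher genes summed to 869 CPM in this library, compared to 1735 and 1442 CPM in the other N421K libraries. They summed to 452 to 592 CPM in WT, 932 to 1265 CPM in D419G and 772 to 1020 CPM in D419N. On both sums the library thus lay within the range of D419N and outside that of the other N421K libraries. That D419N range rested on D419N replicate 3 (713 and 772 CPM), with 161518 UMIs the shallowest of all libraries. The other D419N libraries had 636 and 646 CPM of the lower genes and 1020 and 891 CPM of the higher genes. Without D419N replicate 3, this library would lie outside the D419N range on both sums. It is called the library labelled N421K, and results are given with and without it.

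**Figure D1:**
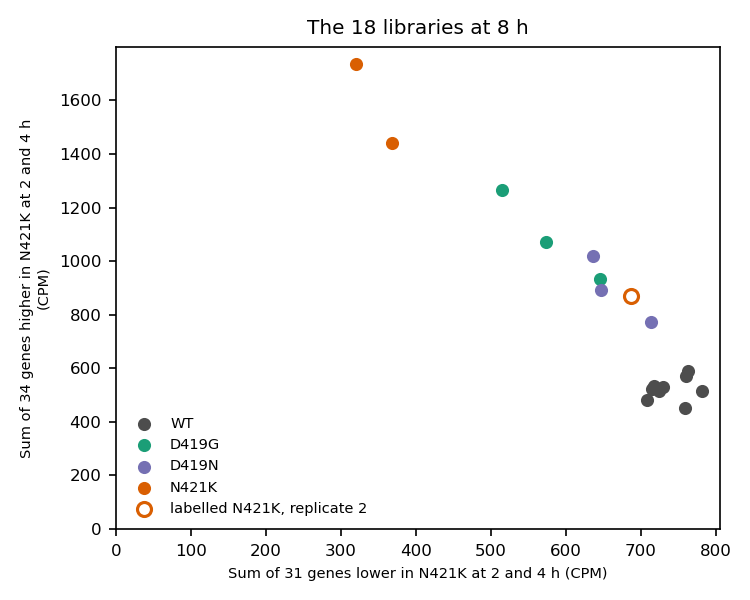
Sum of the 31 genes lower (x axis) and the 34 genes higher (y axis) in N421K at 2 and 4 h, in CPM, for each of the 18 libraries of 8 h; the 5 genes are not among them. The open circle, the library labelled N421K replicate 2, lies at 687 and 869. The D419N library with the fewest UMIs lies at 713 and 772, the others at 636 and 1020 and at 646 and 891. The other N421K libraries lie at 320 and 1735 and at 368 and 1442.

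All 5 genes passed the filter on low counts, as did 9706 genes in all. In the model of time point and line, N421K had 19.8% of the WT level of EPCAM, 23.3% of ADGRE5, 19.6% of CAMK4, 24.7% of SCRN1 and 24.6% of CD48. As log2 fold changes these were -2.33, -2.10, -2.35, -2.01 and -2.03 (standard errors 0.112, 0.140, 0.172, 0.164 and 0.175). From the lowest of the 9706 fold changes, CAMK4 ranked 1, EPCAM 2, ADGRE5 6, CD48 9 and SCRN1 11, which restates the choice. All 5 were below the adjusted p threshold of 0.05 in this contrast, as were 6.92% of all genes in the lower direction, and nothing is read from that count. Against the mean of D419G and D419N, the log2 fold changes of N421K were -1.64 for EPCAM, -2.04 for ADGRE5, -2.48 for CAMK4, -2.24 for SCRN1 and -1.56 for CD48, where 1.11% of all genes were called lower. Without the library labelled N421K replicate 2 of 8 h, the differences from WT were -2.43, -2.15, -2.37, -2.05 and -2.09 in the same order of genes as at first. In these bulk samples fewer cells expressing a gene and less RNA per cell cannot be told apart.

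Among the 3 surface receptors, EPCAM had the most UMIs and thus the smallest relative counting error. In WT it ranged from 77.8 to 102 CPM (median 95.2, n = 9) at 2 h, from 71.8 to 105 CPM (median 95.1) at 4 h and from 72.8 to 124 CPM (median 116) at 8 h. The N421K libraries had 16.3, 20.5 and 9.27 CPM at 2 h, 17.1, 21.3 and 20.8 CPM at 4 h, and 15.4, 75.8 and 28.3 CPM at 8 h. The 75.8 CPM belonged to the library that stood apart and rested on 15 UMIs (95% Poisson interval 42.4 to 125 CPM, which covers counting error only). The 8 others lay between 9.27 and 28.3 CPM, below the lowest of the 45 libraries of the other lines, a D419N library of 8 h with 29.7 CPM. EPCAM was also lower in both D419 lines. D419G had 60.9, 66.2 and 47.3 CPM at 2 h, 47.7, 53.8 and 84.7 CPM at 4 h, and 54.1, 75.3 and 83.3 CPM at 8 h. D419N had 55.6, 76.3 and 48.5 CPM at 2 h, 61.6, 44.1 and 64.7 CPM at 4 h, and 73.3, 71.3 and 29.7 CPM at 8 h. Each D419 line thus lay between WT and N421K, and all D419N libraries of 2 and 4 h and all D419G libraries of 2 h were below all WT libraries of their time point. Such separation was seen for 2.39%, 0.938% and 2.09% of all genes, respectively.

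ADGRE5 was low in N421K, but the D419 lines did not lie side by side. WT ranged from 35.1 to 49.0 CPM (median 40.8) at 2 h, from 33.2 to 63.9 CPM (median 41.0) at 4 h and from 22.5 to 52.0 CPM (median 36.8) at 8 h. N421K had 13.1, 7.79 and 8.79 CPM at 2 h, 5.20, 13.3 and 13.9 CPM at 4 h, and 6.04, 25.3 and 8.77 CPM at 8 h. Apart from the 25.3 CPM (5 UMIs) of the library that stood apart, all were below the lowest value of the other lines, 22.5 CPM in a WT library. D419G had 53.4, 52.3 and 49.8 CPM at 2 h, 37.2, 23.1 and 56.5 CPM at 4 h, and 58.9, 46.6 and 61.7 CPM at 8 h. D419N had 26.7, 22.9 and 26.0 CPM at 2 h, 45.1, 32.4 and 28.1 CPM at 4 h, and 38.0, 29.0 and 23.8 CPM at 8 h. At 2 h all D419G libraries were above and all D419N libraries below the WT range, as were 2.02% and 2.39% of all genes, whereas the lines overlapped at 4 h.

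CD48 had the fewest UMIs of the 3 receptors and the widest relative spread in WT. WT ranged from 9.34 to 37.8 CPM (median 28.5) at 2 h, from 16.7 to 33.6 CPM (median 29.9) at 4 h and from 13.0 to 31.5 CPM (median 24.9) at 8 h. N421K had 8.72, 6.82 and 8.79 CPM at 2 h, 5.20, 2.66 and 7.94 CPM at 4 h, and 5.37, 20.2 and 4.72 CPM at 8 h. The lowest WT value of 2 h rested on 3 UMIs, and the margin to the highest N421K library of 2 h was small. The 20.2 CPM (4 UMIs) of the library that stood apart lay within the WT range. D419G had 17.3, 10.5 and 24.9 CPM at 2 h, 19.8, 30.8 and 16.9 CPM at 4 h, and 10.8, 10.6 and 18.5 CPM at 8 h. D419N had 28.4, 34.3 and 16.6 CPM at 2 h, 13.2, 27 and 18.3 CPM at 4 h, and 17.7, 35.7 and 35.7 CPM at 8 h. Both overlapped with WT at each time point.

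The genes of the 2 intracellular proteins, CAMK4 and SCRN1, were low in every N421K library. CAMK4 in WT ranged from 21.7 to 77.8 CPM (median 34.3) at 2 h, from 20.5 to 43.8 CPM (median 34.2) at 4 h and from 29.8 to 37.3 CPM (median 33.8) at 8 h. N421K had 7.63, 12.7 and 3.42 CPM at 2 h, 0.743, 6.65 and 7.94 CPM at 4 h, and 4.70, 10.1 and 11.5 CPM at 8 h. The 10.1 CPM belonged to the library that stood apart and rested on 2 UMIs (95% Poisson interval 1.22 to 36.5 CPM). In one N421K library of 4 h, CAMK4 was down to a single UMI. D419G ranged from 20.5 to 46.9 CPM (median 38.4, n = 9 over the time points) and D419N from 17.8 to 44 CPM (median 34.9), within or near the range of WT. SCRN1 in WT ranged from 15.6 to 37.0 CPM (median 27.1) at 2 h, from 17.4 to 30.8 CPM (median 26.6) at 4 h and from 19.8 to 42.3 CPM (median 27.6) at 8 h. N421K had 5.45, 10.7 and 7.81 CPM at 2 h, 5.94, 5.32 and 3.97 CPM at 4 h, and 4.70, 15.2 and 6.74 CPM at 8 h. D419G ranged from 16.9 to 52.3 CPM (median 31.9) and D419N from 16.5 to 49.6 CPM (median 34.2). For SCRN1 the margin rested on the library that stood apart, with 15.2 CPM (3 UMIs) against 15.6 CPM (5 UMIs) in the lowest WT library.

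For CAMK4 and SCRN1 all 9 N421K libraries were below all 45 others, and 0.0206% of the 9706 genes, which are these 2 genes, were separated in this way. In the library that stood apart this rested on 2 UMIs of CAMK4 and 3 of SCRN1. Their 95% Poisson intervals reach 36.5 and 44.3 CPM, into the range of the other lines. Without the library labelled N421K replicate 2 of 8 h, all 5 genes were separated, as were 9 genes in all (0.0927%). At single time points, the 3 N421K libraries were below the 15 others for each of the 5 genes at 2 h (0.484% of all genes) and 4 h (0.587%). At 8 h this held for CAMK4 and SCRN1 (0.371%), and for the 5 genes without the library that stood apart (1.46%). As these are the values by which the genes were chosen, the shares are a description.

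Whether the levels in the D419 lines differ from WT was tested. The genes were chosen as lower in N421K than in the other lines, so that WT and D419 values entered the choice too. The tests are therefore not independent of it. A gene as low in the D419 lines as in N421K would not have been chosen, and the results for EPCAM and CD48 were known beforehand. EPCAM was lower in D419G (log2 fold change -0.68, SE 0.0978, adjusted p = 1.8e-07, edgeR, Benjamini-Hochberg) and in D419N (-0.71, SE 0.0974, adjusted p = 7.6e-08). CD48 was lower in D419G (-0.68, SE 0.162, adjusted p = 0.00375, edgeR). It did not pass in D419N (-0.26, 95% interval -0.55 to 0.03, adjusted p = 0.429, edgeR). The call in D419G was lost without replicate number 1, that is, without the libraries of this number in all lines, when the log2 fold change was -0.61 (adjusted p = 0.107, edgeR). ADGRE5 was +0.27 in D419G (95% interval 0.06 to 0.49, adjusted p = 0.129, edgeR) and -0.38 in D419N (-0.62 to -0.15, adjusted p = 0.0588, edgeR), and neither passed. With DESeq2, or without replicate number 4, the D419N difference of ADGRE5 passed (adjusted p = 0.0436 and 0.0432). CAMK4 differed from WT by 0.18 in D419G (95% interval -0.08 to 0.43) and by 0.08 in D419N (-0.17 to 0.34). SCRN1 differed by 0.23 in D419G (-0.02 to 0.49) and by 0.22 in D419N (-0.04 to 0.47). Neither gene passed in either line (adjusted p = 0.338 to 0.860, edgeR), and the lowest bound of the 4 intervals was -0.17. Thus 2 of the 5 genes were lower in D419G and 1 in D419N, where 2.22% and 1.26% of all genes were called lower. The median log2 fold change of the 5 was 0.18 in D419G and -0.26 in D419N, that of all genes 0.00 in both.

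**Figure D2:**
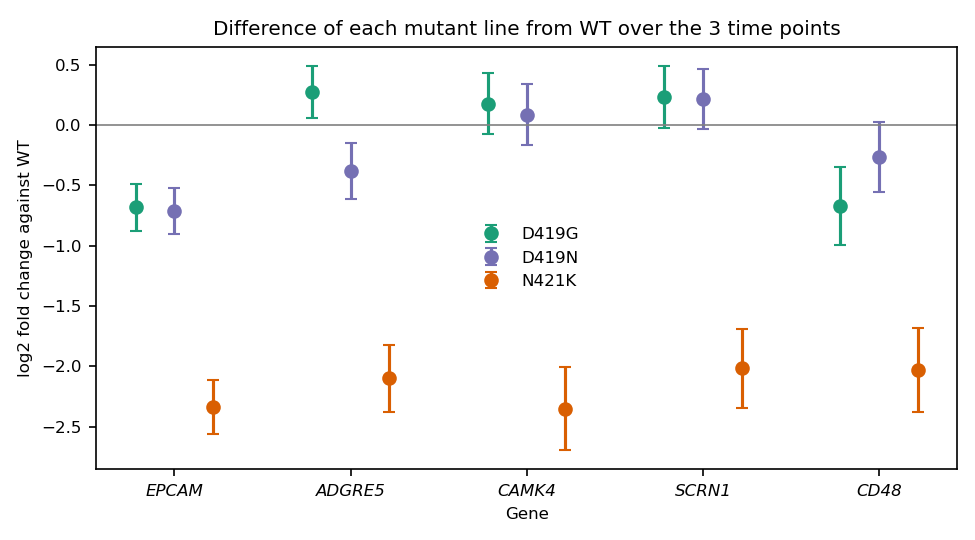
Log2 fold change of each gene against WT (y axis) in D419G, D419N and N421K, from the model with time point and line as terms; points are estimates and bars 95% intervals. EPCAM is lower in each line, and CD48 is lower in D419G. The interval of ADGRE5 lies above 0 in D419G and below 0 in D419N, though neither passed after adjustment. The intervals of CAMK4 and SCRN1 in the D419 lines include 0, whereas all N421K estimates lie between -2.35 and -2.01.

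Between the D419 lines, ADGRE5 was higher in D419G than in D419N (log2 fold change 0.65, SE 0.144, adjusted p = 0.0235, edgeR, Benjamini-Hochberg). This was 1 of the 5 genes, compared to 0.196% of all genes in this contrast. The adjusted p was 0.0973 without replicate number 1 and 0.240 without replicate number 3 (edgeR), with log2 fold changes of 0.80 and 0.51. The other 4 genes did not pass. Their differences were 0.03 for EPCAM (95% interval -0.23 to 0.29), 0.09 for CAMK4 (-0.23 to 0.41), 0.02 for SCRN1 (-0.30 to 0.33) and -0.41 for CD48 (-0.82 to -0.003). Library by library, exact permutation tests (two-sided) of 3 D419G or D419N libraries against the 9 WT libraries of a time point gave an unadjusted p below 0.05 in 11 of 30 tests. Among these was each test of EPCAM, whose difference was known beforehand. The exact test was not run over all genes, so that nothing is read from this count. The lowest exact p was 0.00909, which is the smallest this design can give, and it was reached by EPCAM in D419G at 2 h and in D419N at 2 and 4 h. It was also reached by ADGRE5 at 2 h in both lines, which was higher in D419G and lower in D419N. After adjustment over the 30 tests none passed (lowest exact adjusted p = 0.0545).

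Whether the levels changed with time after the IL-4 pulse was tested in the 27 WT libraries, over 9142 genes. The 2 h libraries lay in plate rows A and B, those of 4 h in C and D, those of 8 h in E and F. Time point and plate row therefore cannot be told apart, and there was no group without IL-4. EPCAM was higher at 8 h than at 2 h (log2 fold change 0.23, SE 0.0798, adjusted p = 0.0214, edgeR, Benjamini-Hochberg) and than at 4 h (0.28, SE 0.0820, adjusted p = 0.0281, edgeR). It was the only one of the 5 genes to pass, where 30.7% and 5.88% of all genes did. Without replicate number 3 or 6, the adjusted p of 8 h against 2 h was 0.0645 or 0.0503 (edgeR). The log2 fold changes of 8 h against 2 h were -0.07 for ADGRE5 (95% interval -0.29 to 0.15), 0.00 for CAMK4 (-0.25 to 0.26), 0.14 for SCRN1 (-0.11 to 0.40) and -0.10 for CD48 (-0.38 to 0.19).

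The N421K difference was present at each time point, and its change with time was tested as an interaction, which the choice of the genes did not use. At 2, 4 and 8 h the log2 fold change against WT was -2.73, -2.21 and -2.10 for EPCAM, and -2.10, -2.03 and -2.20 for ADGRE5. It was -2.29, -2.86 and -2.05 for CAMK4, -1.71, -2.26 and -2.20 for SCRN1, and -1.74, -2.38 and -2.10 for CD48. None of the 5 genes passed the interaction test (adjusted p = 0.753 to 0.993, edgeR), compared to 0.691% of 10277 genes that did. Of the 5, 0 had an unadjusted p below 0.05 in it and 0 passed with DESeq2. The intervals were wide. From 2 to 8 h the N421K difference of EPCAM changed by 0.63 (95% interval 0.003 to 1.25), by 0.40 without the library labelled N421K replicate 2, and that of CAMK4 by 0.24 (-0.70 to 1.18). As a share of the WT mean, N421K had 16.7%, 21.8% and 36.0% of EPCAM at 2, 4 and 8 h, with 19.8% at 8 h without that library. For CD48 the shares were 32.2%, 18.6% and 42.1%, with 21.0% at 8 h without it. For CAMK4 they were 21.1%, 15.1% and 26.2%, with 24.1% without it.

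Over the 54 libraries the 5 genes varied together, with Pearson's r of log2 CPM between 0.587 (CAMK4 and CD48) and 0.837 (ADGRE5 and CAMK4). These libraries share the N421K group by which the genes were chosen. Over the 45 libraries of the other lines, r lay between -0.404 and 0.236, and over the 27 WT libraries between -0.277 and 0.194. Among all genes, those with the most similar pattern to EPCAM were ARPC1B (r = 0.863 over 54 libraries), a subunit of the actin-nucleating Arp2/3 complex, and SSBP1 (0.846), a mitochondrial DNA-binding protein. Their differences between N421K and WT were smaller (log2 fold change -0.65 and -0.41) and both were also below WT in the D419 lines, ARPC1B by -0.32 in D419G and -0.28 in D419N. For ADGRE5 the most similar genes were CAMK4 (0.837), EPCAM (0.799) and ENSG00000274253 (0.757). For CAMK4 the third after ADGRE5 and EPCAM was TBC1D4 (0.755), a Rab GTPase-activating protein. SCRN1 was most similar to ENSG00000274253 (0.782), PAG1 (0.758) and TPM2 (0.743). CD48 was most similar to PAG1 (0.808), BCL11A (0.774) and ENSG00000274253 (0.750). PAG1, a membrane adaptor that recruits the kinase CSK, had 77.5 CPM in WT, 52.2 in D419G, 74.0 in D419N and 27.9 in N421K. TPM2, a tropomyosin, had 9.32 CPM in WT, 17.2 in D419G, 12.1 in D419N and 2.35 in N421K.

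Genes known to act with the 5 were examined next, against the 6.92% of all tested genes that were lower and the 6.76% that were higher in N421K than in WT. Of 16 other SLAM family genes and CD48 partners, 6 were tested and 0 passed between N421K and WT in edgeR's test (2 with an unadjusted p below 0.05). Their median log2 fold change was -0.04, compared to 0.00 for all genes, and the largest differences were PTPN6 (-0.50), a phosphatase that binds SLAM family tails, and PTPN11 (0.23). Against WT, PTPN6 was at -0.40 in D419G and -0.46 in D419N, and PTPN11 at -0.06 and 0.05. LY9, a SLAM family receptor too low to be tested, had 5.57 ± 3.18 CPM in WT (SD, n = 27, 155 UMIs) and 2.03 ± 1.06 CPM in N421K (n = 9, 22 UMIs). SLAMF6 and CD84, which share the locus with CD48, were at -0.09 and -0.05. Of the ADGRE5 ligands, related receptors and their G proteins, 4 were tested and 1 was higher, the integrin subunit ITGB1 (0.59), whereas the G protein subunit GNA13 was at 0.07. In D419G and D419N, ITGB1 was at 0.07 and 0.12. Of 22 genes of calcium-calmodulin and calcineurin signalling, 3 were lower and 2 higher. The largest were CREBBP (0.55, higher), a coactivator of CREB, and MEF2D (-0.36, lower), a transcription factor released by calcium signals. Both moved in the D419 lines too, CREBBP by 0.41 in D419G and 0.25 in D419N, MEF2D by -0.37 and -0.40. Of 13 EPCAM partners and processing enzymes, 1 was higher, the tetraspanin CD9 (0.72), and 1 lower, the membrane protease ST14 (-0.35). CD9 was at -0.29 in D419G and 0.03 in D419N, whereas ST14 was at -0.23 and -0.26. BACE2, a membrane protease too low to be tested, had 3.35 ± 1.54 CPM in WT (103 UMIs) and 0.458 ± 0.762 CPM in N421K (6 UMIs). Like LY9, it was named after its values were seen. Some other genes of these lists too low to be tested were not lower in N421K. Among them were SLAMF7 (0.701 CPM in WT, 0.987 in N421K) and ITGAV (3.98 and 4.96 CPM). The other secernins, SCRN2 (0.03) and SCRN3 (0.13), did not pass. Of 9 epithelial markers, 5 were among the genes listed with counts, and their sum was at most 29.1 CPM in a library. KRT8 and KRT18 had means below 0.5 CPM in each line, whereas CDH1 had 11.3 CPM in WT and 11.6 CPM in N421K (-0.04). Of the 9 B cell markers, 3 were lower and 3 higher in N421K. The largest difference was that of CD38 (-0.42), which did not pass (adjusted p = 0.0862, edgeR), followed by MME (0.40, higher) and CD22 (-0.36, lower). In D419G and D419N, CD38 was at -0.42 and -0.33, MME at 0.22 and 0.17, and CD22 at -0.37 and -0.26.

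The chromosomal neighbours of the 5 genes were examined next. Within 1 Mb of their starts, 74 other genes were tested, of which 6 were lower and 3 higher in N421K than in WT (6.92% and 6.76% of all tested genes), with a median log2 fold change of -0.03 and a range of -0.63 to 0.57. None of them came near the difference of the 5 genes. The nearest tested genes on either side were ASF1B (-0.04) and DDX39A (-0.08) for ADGRE5, and RPS3AP21 (-0.02) and STARD4 (-0.18) for CAMK4. For CD48 they were CD84 (-0.05) and ENSG00000213080 (0.27). For SCRN1, CREB5, whose start lies at -1691 kb and thus outside the window of 1 Mb, was at 0.12. On the other side FKBP14, whose start lies 36.4 kb away, was higher in N421K (0.57, adjusted p = 4.4e-04, edgeR). FKBP14 was also higher in D419G (0.51, adjusted p = 0.0252, edgeR), and was at 0.24 in D419N (adjusted p = 0.494, edgeR). On chromosome 7, 33.9% of the 348 genes tested that start above 60 Mb were lower in N421K (median log2 fold change -0.16), compared to 6.88% of the 160 that start below 60 Mb (median 0.00), where SCRN1 lies. ARPC1B and SSBP1, the genes most similar to EPCAM, lie above 60 Mb. Genes annotated as overlapping the 5 contributed few counts, at most 33 UMIs over all 54 libraries for an antisense RNA at CD48, but whether strand was used in counting is not given in the sources used here.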

How the data were processed

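OCI-Ly1 cells were analyzed in 54 prime-seq libraries. Per the study's methods, the Drop-seq pipeline was used. The values the authors deposited are raw UMI counts of each gene in each well, neither normalized nor pooled. The build hg38 is named in the submitters' processing notes. Which aligner and annotation were used, and whether strand was, is not given in the sources used here. No line of the table lacked an identifier and 0 columns were left unused. Of 31835 identifiers, 24867 were matched to a symbol.

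The analysis ran in R 4.3.3 with edgeR 4.0.16 (quasi-likelihood test, TMM scaling, filterByExpr), limma 3.58.1 and DESeq2 1.42.0 (as an alternative, the tool the study used), with Benjamini-Hochberg adjustment over all genes tested and a threshold of 0.05. Models held time point and line (54 libraries), time point (27 WT libraries), or the 12 groups (interaction). Log2 CPM used a prior count of 2. Single time points were compared by exact permutation tests in Python 3.11.15 with SciPy 1.17.1, and plots were drawn with matplotlib 3.10.9. The scripts were tested on simulated counts. Depth limits precision, as a library held as few as 1 UMI of a gene, and intervals of counts cover counting error only.

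The 5 genes, the gene lists and the comparisons were chosen with earlier results of these data known. The named genes were the 5 genes, from each list the 2 tested genes with the largest difference between N421K and WT, for each of the 5 the 3 genes with the highest r and the nearest tested gene on either side, and STAT6. Other SLAM family genes, epithelial keratins and B cell markers beside these were named after their values were seen. Replicate numbers were not treated as pairing the libraries. Same-numbered WT libraries of different time points deviated from their group means with a median correlation of 0.0048 (highest 0.241, 3 of 27 pairs over 0.1). For libraries of other numbers the median was 0.0046. These values show no pairing by number but cannot exclude a weak one. None of the 135 pairs of libraries of a group agreed within sampling noise, as their chi-square divided by its degrees of freedom was 1.07 to 3.98. Alternatives covered the scaling, filter, tool, covariates, shallow libraries, single replicate numbers and the library labelled N421K replicate 2 of 8 h, the last chosen after seeing the data. The protein sequences and the promoters of EPCAM and ADGRE5 were not used here, and the nearest genes of EPCAM are not reported here.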

Additional observations from a re-analysis of the deposited data

Results flagged for a closer look

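In 3 of the 15 WT groups of 9 libraries, a library lay far from the others by Dixon's ratio, where chance gives about 1 in 20 groups. These were EPCAM in WT replicate 8 at 8 h (72.8 CPM, below the others), ADGRE5 in WT replicate 3 at 4 h (63.9 CPM, above the others) and CAMK4 in WT replicate 6 at 2 h (77.8 CPM from 25 UMIs, above the others). The 3 libraries differ from each other, and no library was flagged for more than 1 of the 5 genes.

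ADGRE5 was flagged because the D419 lines differed from each other, with a log2 fold change of 0.65 between D419G and D419N (0.27 and -0.38 against WT).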

How the results depend on the processing

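Over all alternatives, the 10 N421K differences kept their sign and moved by less than 1 SD of the N421K replicates in 180 of 180 refits. The genes were chosen on these differences, and the SD included the library labelled N421K replicate 2 of 8 h. Nothing is therefore read from this count. Of the 436 refits of the 25 tested values, 7 lost and 2 gained a call and 13 changed sign. For ADGRE5, D419G against D419N was 0.66 when counts were summed over time points (adjusted p = 0.0762, edgeR) and 0.61 with plate row in place of time point (0.0743), neither passing, and ranged from 0.51 to 0.80 when replicate numbers were left out. DESeq2 gave 0.65 without an adjusted p for it, and none for CAMK4, CD48 and SCRN1 in that contrast. For ADGRE5 in D419N against WT, DESeq2 gave -0.39 (adjusted p = 0.0436), and the values without a replicate number ranged from -0.53 to -0.27. For CD48 in D419G against WT they ranged from -0.78 to -0.61. With replicate number as a block, though no pairing by number was seen, no call of the 5 genes changed. EPCAM was then -0.68 in D419G and -0.70 in D419N, ADGRE5 0.66 between the D419 lines, and CD48 -0.71 in D419G. The genes called in D419G, D419N and N421K against WT went from 522, 267 and 1328 to 325, 151 and 985. Of 300 repeats of the exact tests, none passed (lowest adjusted p = 0.0519) and 16 changed sign. Most repeats left out a replicate number and so had fewer libraries than 3 against 9, where the smallest exact p is 0.00909. With fewer libraries this smallest p is larger, so that passing after adjustment was hardly possible. Nothing is read from the absence of calls in these repeats. Neighbours within 0.5 and 2 Mb had medians of -0.04 and -0.04.

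The values that changed sign passed neither as reported nor in the refit (0 of 13 and 0 of 16). Without a replicate number, D419G against D419N ranged from -0.030 to 0.20 for EPCAM and from -0.081 to 0.094 for SCRN1, and without the shallow libraries it was -0.0066 and -0.035. CAMK4 at 8 h against 2 h in WT ranged from -0.13 to 0.095 (-0.042 with DESeq2, -0.028 with the replicate block). The change of the N421K difference from 2 to 8 h ranged from -0.41 to 0.43 for ADGRE5, from -0.90 to 0.74 for CAMK4 and from -0.72 to 0.035 for CD48. For single time points, D419G against WT ranged from -0.38 to 0.13 for ADGRE5 at 4 h, from -0.012 to 0.21 for CAMK4 at 2 h and -0.21 to 0.21 at 4 h, and from -0.42 to 0.28 for SCRN1 at 4 h and -0.0011 to 0.11 at 8 h. D419N against WT ranged from -0.19 to 0.031 for CAMK4 at 2 h and -0.43 to 0.084 at 8 h, from -0.028 to 0.50 for SCRN1 at 4 h and -0.30 to 0.32 at 8 h, and from -0.072 to 0.42 for CD48 at 2 h.

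Depth limits the low values: at 1 to 42 UMIs of a gene per N421K library, counting error is a large part of the spread.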
